A study of Rattus norvegicus with 18 samples.

Results

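Chemokines and their receptors were examined in whole rat kidney after cadmium exposure. The genes were all those whose symbol on the array reads Ccl, Cxcl, Ccr or Cxcr followed by a number, together with Cx3cl1, Cx3cr1, Xcl1, Xcr1 and Ackr1 to Ackr4. The rule found 56 of the 22084 genes that the array names, 34 ligands and 22 receptors, and each was read from 1 transcript cluster, the probe set of 1 gene. The rule used names only and no measured value, but the members were chosen with earlier results of these data known.

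The kidneys came from Sprague-Dawley (SD) rats in 6 groups of 3 arrays: CdCl2 for 1 day, normal saline for 1 day, CdCl2 for 6 weeks, normal saline for 6 weeks, CdCl2 for 12 weeks and normal saline for 12 weeks. The dose, route, age and sex are not given in the sources used here, and the replicates are labelled biological without saying whether each was a separate animal, so a p-value measures the spread between these samples. Each Affymetrix array was hybridised with RNA of kidney tissue that holds all of the organ's cell types. In such samples a change in the number of cells of a type cannot be told apart from a change in RNA per cell.

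Chemokines are small secreted proteins that bind receptors coupled to inhibitory G proteins on leukocytes and set the direction in which those cells move. Inflammatory chemokines such as Ccl2 and Cxcl10 are made on demand by injured tubule cells, endothelium and macrophages, whereas homeostatic ones such as Ccl19, Ccl21 and Cxcl13 place lymphocytes and dendritic cells in lymphoid tissue. Atypical receptors (Ackr1 to Ackr4) bind chemokines without G protein signalling and take them up or transport them.

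All levels are log2 signals as deposited, and every difference is cadmium minus saline on that log2 scale, which was not calibrated to a fold change. The scale ended at 19.93 and the median signal of an array lay between 4.03 and 4.26. A background level of 4.22 was taken as the 95th percentile of the mean signals of 1276 odorant and vomeronasal receptor genes, taken to stand for unexpressed genes. By that measure 30 of the 56 genes had a mean above background, against 13985 of all 22084 genes (63.3%). In at least 1 group 33 of the 56 lay above background and 23 did not, 12 ligands and 11 receptors. Signals of different probes do not rank the amounts of different transcripts, so levels are compared within a gene only. The tubule markers were bright, with mean levels of the proximal tubule list between 14.42 and 17.81 over the arrays, so the kidney markers were present. The number of arrays, 3 in a group, limits the precision of every value.

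Cadmium changed very few of these genes past the test at any time. At 1 day 0 of the 56 passed an adjusted p of 0.05 in limma, against 0.0% of all genes, and 2 had an unadjusted p under 0.05, against 1.96% of all genes. At 6 weeks Ccl19 alone passed, 1 of 56 against 0.0408% of all genes, and it rose. By an unadjusted p under 0.05, 13 of 56 were higher at 6 weeks, against 5.63% of all genes, and 0 were lower, against 4.25%. At 12 weeks Ccl9 alone passed, 1 of 56 against 0.326%, and it rose too. By an unadjusted p under 0.05, 6 were higher at 12 weeks, against 4.6%, and 3 were lower, against 4.43%. These unadjusted counts take in genes above background in no group, namely Ccl7 and Ackr1 at 6 weeks and Ccl4 and Ccl11 at 12 weeks. No chemokine gene fell past the test at any of these times.

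The spread of the arrays gave a wider view of the same comparisons. A gene counts here as apart when the 3 cadmium arrays all lie above, or all below, the 3 saline arrays. At 1 day 0 genes were apart on the higher side, against 2.35% of all genes, and 4 on the lower side, against 2.88%, and of these 4 only Ccl28 was above background. At 6 weeks 12 of 56 were apart on the higher side, against 10.5% of all genes, and 3 on the lower side, against 8.04%. At 12 weeks 8 of 56 were apart on the higher side, against 7.92%, and 4 on the lower side, against 7.07%. Some of these were above background in no group: Ackr1 on the higher side at 6 weeks, Ccl4 and Cxcr5 on the higher side at 12 weeks, and Ccl11 and Ccr8 on the lower side at 12 weeks. At 6 and 12 weeks the higher-side share exceeded that of all genes and the lower-side share was near or below it; these shares were not tested. The median difference over the 56 genes was -0.01 at 1 day, 0.09 at 6 weeks and 0.05 at 12 weeks, beside -0.01, 0.00 and 0.01 over all genes.

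**Figure D1:**
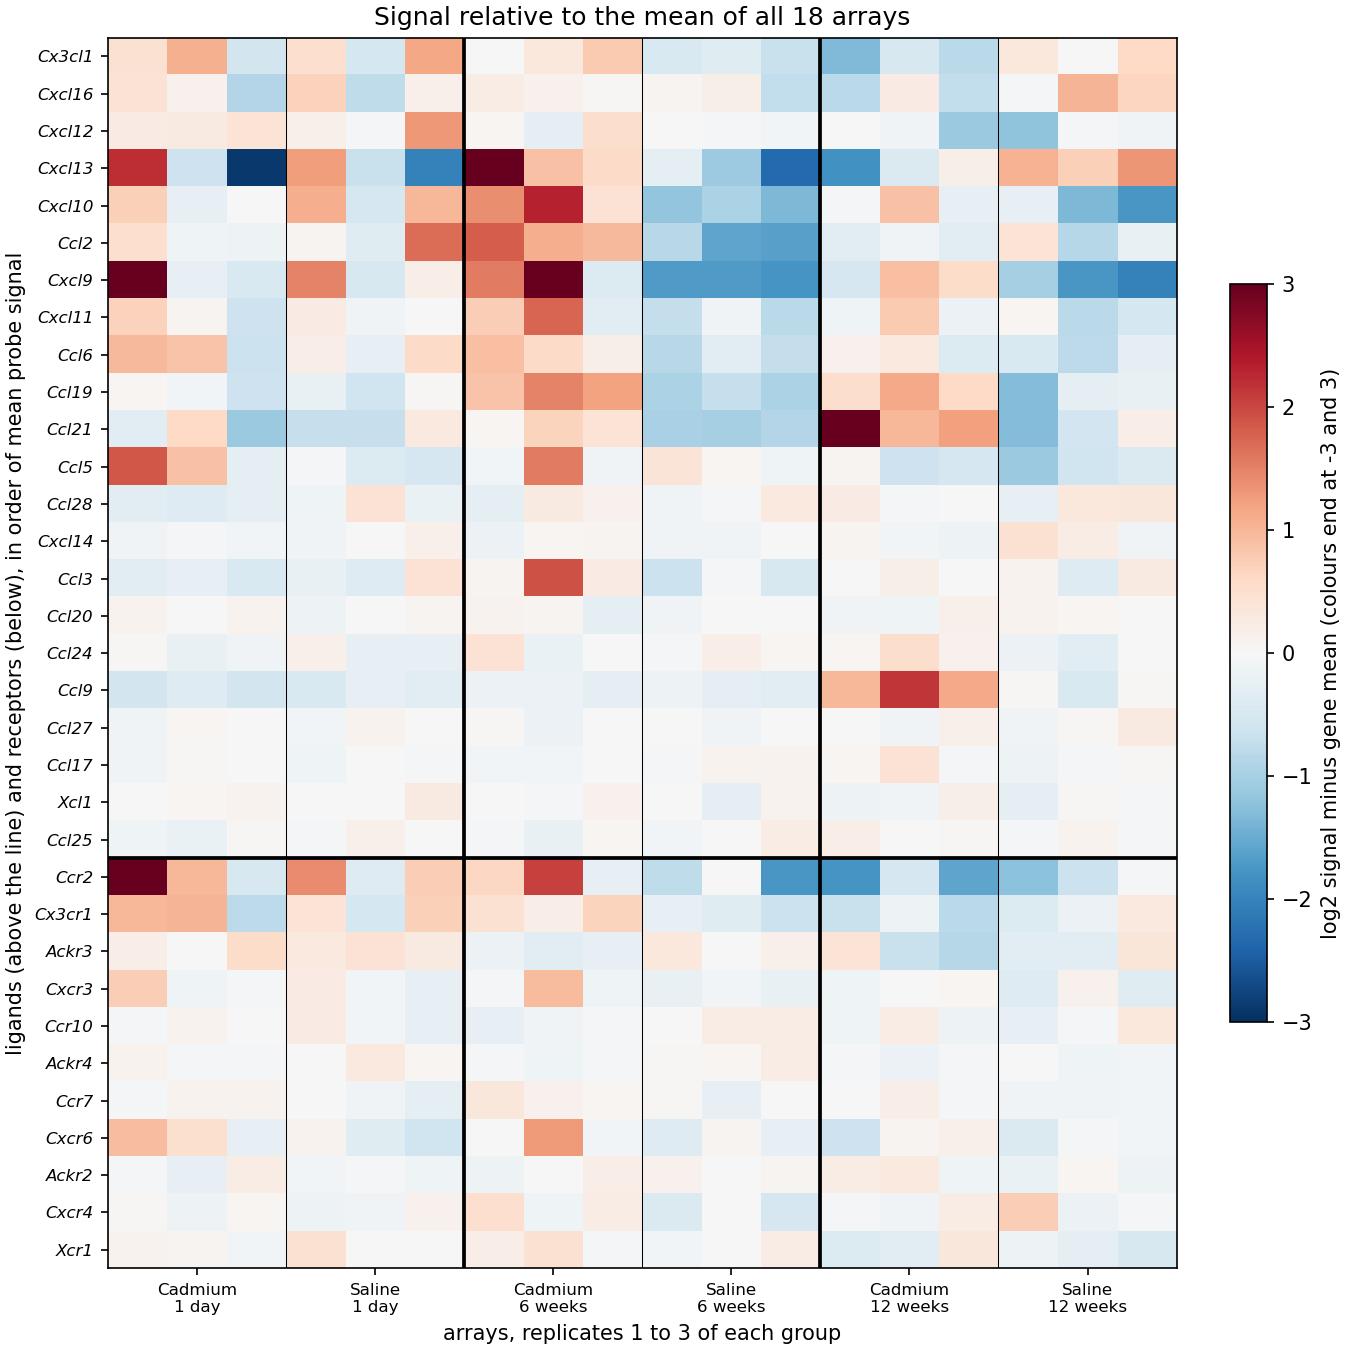
Heat map of the 33 chemokine genes above background in at least 1 group (rows, ligands above the line and receptors below, in order of mean probe signal) in all 18 arrays (columns, cadmium left of saline at each time); colour gives the log2 signal minus the gene's mean over all arrays, cut at -3 and 3. Ccl19 is above its mean in the 6 cadmium arrays of 6 and 12 weeks, and Ccl9 stands out in the 3 cadmium arrays of 12 weeks.

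The ligands of lymphoid tissue included the gene called at 6 weeks. Ccl19 draws mature dendritic cells and naive T cells through Ccr7. At 6 weeks its log2 signal was 7.34, 7.98 and 7.71 in cadmium kidneys, against 5.55, 5.81 and 5.55 in saline kidneys. The groups were well apart, with means of 7.68 ± 0.32 and 5.63 ± 0.15 (cadmium and saline, SD, n = 3 each), and Ccl19 rose by 2.04 (SE 0.28, 95% interval 1.44 to 2.65, limma adjusted p = 0.021). At 12 weeks the signal was 7.03, 7.64 and 7.08 in cadmium kidneys, against 5.19, 6.19 and 6.28 in saline kidneys. These groups did not overlap either, but the difference of 1.37 (SE 0.28) missed the threshold with a limma adjusted p of 0.0642. At 1 day the arrays of both groups mixed, with 6.56, 6.41 and 5.87 in cadmium kidneys, against 6.27, 5.90 and 6.54 in saline kidneys, a difference of 0.04 (SE 0.28, limma adjusted p = 1.00).

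Over the 9 saline arrays of all times Ccl19 ran between 5.19 and 6.54, below each of the 6 cadmium arrays of 6 and 12 weeks. Such a position above every saline array was held at 6 weeks by Ccl19 and Ccr7, 2 of 56 genes against 0.616% of all genes, and at 12 weeks by Ccl19, Ccl21 and Ccl9, 3 of 56 against 1.55%. The Ccl19 call at 6 weeks rests on the full set of arrays: the adjusted p lay between 0.0518 and 0.148 when any of saline replicates 1, 2 and 3 or cadmium replicates 1 and 2 was left out, while the difference stayed between 1.89 and 2.21.

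The 250 bases before the annotated start of Ccl19, on the minus strand of chr5:61761165-61761414 (RefSeq, GRCr8), are shown because this gene carries the call at 6 weeks. Capitals mark a match to the core of the interferon-stimulated response element (ISRE), searched on both strands as GAAA, any 2 bases and GAAA, at bases -51 to -42 before the start.

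Ccl19: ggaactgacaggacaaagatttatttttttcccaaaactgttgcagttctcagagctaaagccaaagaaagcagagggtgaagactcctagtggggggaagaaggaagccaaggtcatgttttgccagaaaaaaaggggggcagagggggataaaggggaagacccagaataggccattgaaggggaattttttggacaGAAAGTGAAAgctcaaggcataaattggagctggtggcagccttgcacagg

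A promoter window was at hand for 43 of the 56 genes. The ISRE core was found in 2 of these 43, Ccl19 and Cxcl10, against 3.41% of the 33469 windows of the table. The kappaB motif of NF-kappaB, searched on both strands as GGGA, any 2 bases and TTCC, was found in 6 of 43 (Ccl7, Ccr3, Cxcl1, Cxcl10, Cxcl11 and Cxcl6), against 1.08% of windows. No match of one motif overlapped a match of the other in these windows. A match in letters describes the sequence and is not a measured binding site.

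Ccl21 shares the receptor Ccr7 with Ccl19 and is typical of lymphatic endothelium. At 12 weeks its signal was 9.42, 7.34 and 7.59 in cadmium kidneys, against 5.05, 5.79 and 6.54 in saline kidneys. The groups did not overlap, and the difference was 2.33 (SE 0.53), with a limma adjusted p of 0.111. Without cadmium replicate 1, the array with the highest value, the difference was 1.67. At 6 weeks the signal was 6.41, 7.03 and 6.75 in cadmium kidneys, against 5.37, 5.35 and 5.48 in saline kidneys, again without overlap (1.33, SE 0.53, adjusted p = 0.449). At 1 day the groups overlapped, at 6.07 ± 0.86 in cadmium kidneys and 5.98 ± 0.58 in saline kidneys (SD, n = 3 each). The mean level of 4 lymphatic endothelium markers ran from 6.18 to 6.97 in cadmium kidneys at 12 weeks. In saline kidneys it ran from 6.27 to 6.68, so these ranges overlapped. The single markers went both ways at 12 weeks, with Lyve1 at 0.43, Prox1 at 0.13, Pdpn at -0.46 and Flt4 at -0.12. Their part in the Ccl21 difference was not tested.

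Cxcl13, the ligand of Cxcr5 that draws B cells, had the widest range of the 56 genes over the 18 arrays, from 5.47 to 12.30. At 6 weeks its signal was 12.30, 9.24 and 8.94 in cadmium kidneys, against 8.06, 7.27 and 6.03 in saline kidneys, a difference of 3.04 (SE 1.18, limma adjusted p = 0.433) without overlap. At 12 weeks it was 6.52, 7.92 and 8.54 in cadmium kidneys, against 9.39, 9.07 and 9.67 in saline kidneys, a difference of -1.72 (SE 1.18, adjusted p = 0.711), also without overlap but on the lower side. The 1-day groups spanned 5.47 to 10.58 in cadmium kidneys and 6.32 to 9.61 in saline kidneys. The mean of 5 B cell markers was 5.50 in saline replicate 1 of 12 weeks, against 4.07 and 4.09 in the other saline arrays of that time. The part of this marker list in the Cxcl13 levels was not tested. Ms4a1 and Cr2 of that list were at background in every group.

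Among the receptors of these ligands, Ccr7 was close to background. At 6 weeks it had 4.77, 4.55 and 4.48 in cadmium kidneys, against 4.45, 4.18 and 4.41 in saline kidneys, a difference of 0.25 (SE 0.10, limma adjusted p = 0.441). The cadmium arrays were the higher 3, by a narrow margin. At 1 day Ccr7 had 4.40, 4.54 and 4.54 in cadmium kidneys, against 4.41, 4.32 and 4.16 in saline kidneys, with overlap. At 12 weeks it averaged 4.47 ± 0.12 in cadmium kidneys and 4.33 ± 0.01 in saline kidneys (SD, n = 3 each). The cadmium arrays of 12 weeks were again the higher 3, by a narrow margin. Neither of these differences, 0.20 and 0.15, passed the test. Cxcr5 was above background in no group. Ackr4, the atypical receptor that takes up Ccl19, Ccl21 and Ccl25, had 4.66, 4.60 and 4.68 in cadmium kidneys at 6 weeks, against 4.75, 4.78 and 4.94 in saline kidneys, apart on the lower side (-0.17, SE 0.09, adjusted p = 0.537). At 1 day it had 4.83, 4.68 and 4.70 in cadmium kidneys, against 4.74, 5.01 and 4.78 in saline kidneys, and these overlapped (-0.11, SE 0.09).

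**Figure D2:**
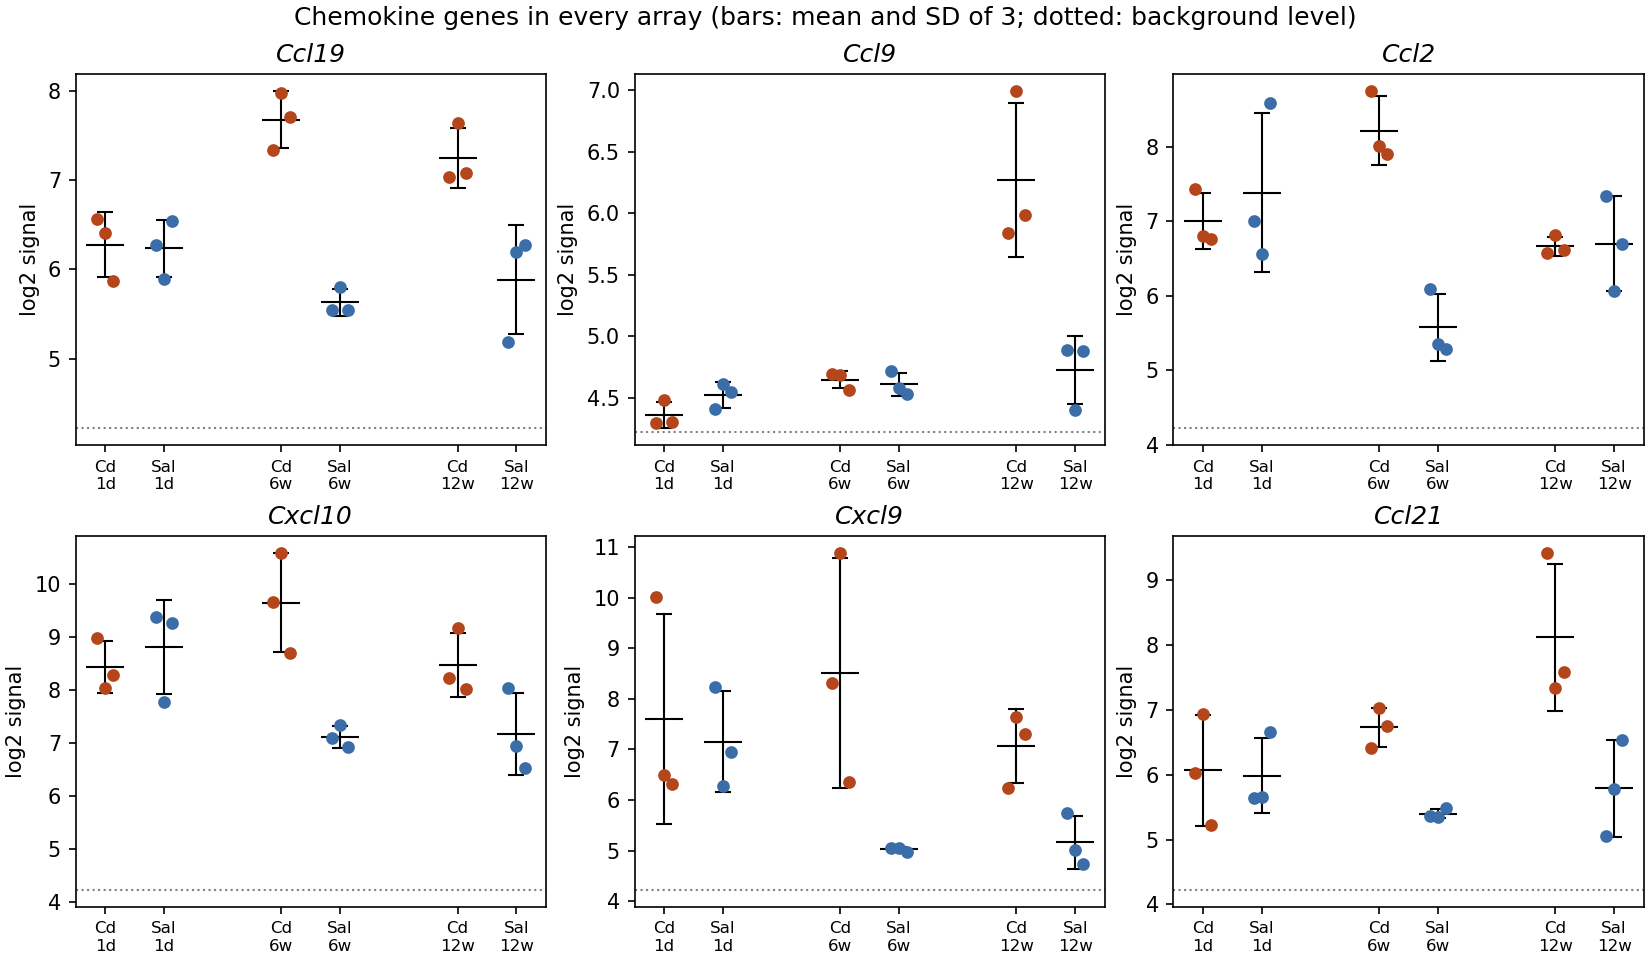
Log2 signal of Ccl19, Ccl9, Ccl2, Cxcl10, Cxcl9 and Ccl21 (one panel each, vertical axis) in each array at 1 day, 6 weeks and 12 weeks; cadmium (Cd, orange) stands left of saline (Sal, blue), horizontal bars give the mean and error bars the SD of 3 arrays, and the dotted line is the background level of 4.22. Ccl19 separates at 6 and 12 weeks and Ccl9 at 12 weeks only. The saline mean is low at 6 weeks for Ccl2, and at both 6 and 12 weeks for Cxcl10 and Cxcl9.

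The inflammatory CC ligands of macrophages and T cells included the gene called at 12 weeks. Ccl9, which in mice acts through CCR1, had 5.84, 6.99 and 5.98 in cadmium kidneys at 12 weeks, against 4.89, 4.40 and 4.88 in saline kidneys. The groups were apart, with means of 6.27 ± 0.63 and 4.73 ± 0.28 (cadmium and saline, SD, n = 3 each), and Ccl9 rose by 1.55 (SE 0.22, 95% interval 1.07 to 2.02, limma adjusted p = 0.0054). The saline level lay little above the background of 4.22. Ccl9 stayed past the threshold when any of the 6 arrays of 12 weeks was left out, with differences of 1.19 to 1.76, but not when these 6 arrays were fitted alone (adjusted p = 0.461), where 0 of all genes passed.

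At the earlier times Ccl9 was low in both groups. It had 4.69, 4.68 and 4.56 in cadmium kidneys at 6 weeks, against 4.71, 4.58 and 4.53 in saline kidneys, a difference of 0.04 (SE 0.22, 95% interval -0.44 to 0.51). At 1 day it had 4.29, 4.48 and 4.30 in cadmium kidneys, against 4.41, 4.62 and 4.55 in saline kidneys, a difference of -0.17 (SE 0.22). The cadmium difference at 12 weeks exceeded that at 6 weeks by 1.51 (SE 0.31) and that at 1 day by 1.71 (SE 0.31), with limma adjusted p of 0.268 and 0.0805, so the change between times was not past the threshold. The promoter window of Ccl9, on the minus strand of chr10:68868878-68869127 (RefSeq, GRCr8), is shown beside that of Ccl19 because these are the 2 genes that passed a cadmium comparison; it held neither motif, so it has no capitals.

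Ccl9: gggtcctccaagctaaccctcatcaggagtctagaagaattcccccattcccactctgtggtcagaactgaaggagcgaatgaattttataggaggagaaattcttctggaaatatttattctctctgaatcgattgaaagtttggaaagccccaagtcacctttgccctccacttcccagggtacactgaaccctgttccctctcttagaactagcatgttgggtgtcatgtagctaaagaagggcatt

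The other ligands of this class did not pass at any time. Ccl6, in mice a macrophage chemokine of the same receptor, had 7.56, 7.23 and 6.84 in cadmium kidneys at 6 weeks, against 5.81, 6.32 and 5.94 in saline kidneys. The groups were apart (1.19, SE 0.36, limma adjusted p = 0.32), and they overlapped at the other times. Ccl3, an activation product of macrophages, had 5.15, 7.00 and 5.32 in cadmium kidneys at 6 weeks, against 4.44, 5.02 and 4.60 in saline kidneys (1.14, SE 0.37, adjusted p = 0.359). Its groups were apart too, but cadmium replicate 2 stood far above the other arrays. Ccl5, a product of T cells that draws T cells and monocytes, was the gene with the smallest p above background at 1 day: 7.35, 6.37 and 5.18 in cadmium kidneys, against 5.46, 5.07 and 4.99 in saline kidneys. Cadmium replicate 3 lay among the saline arrays, and the difference of 1.13 (SE 0.48, unadjusted p = 0.034) had an adjusted p of 1.00; without cadmium replicate 1 it was 0.60. At 1 day Ccl3 had 4.74, 4.84 and 4.62 in cadmium kidneys, against 4.85, 4.70 and 5.50 in saline kidneys, which overlapped (-0.28, SE 0.37). Ccl4 was above background in no group. Ccr1 likewise stayed at background.

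Ccl2, the main chemoattractant of monocytes, gave a difference at 6 weeks that narrowly missed the threshold. Its signal was 8.75, 8.01 and 7.90 in cadmium kidneys, against 6.10, 5.35 and 5.29 in saline kidneys. The groups were 8.22 ± 0.46 and 5.58 ± 0.45 (cadmium and saline, SD, n = 3 each), apart by 2.64 (SE 0.45, 95% interval 1.69 to 3.60, limma adjusted p = 0.0554). At 1 day it had 7.44, 6.80 and 6.77 in cadmium kidneys, against 7.00, 6.56 and 8.60 in saline kidneys. At 12 weeks it had 6.58, 6.81 and 6.62 in cadmium kidneys, against 7.34, 6.06 and 6.70 in saline kidneys. The groups overlapped at both times, with differences of -0.38 and -0.03 (SE 0.45 each), and the lowest signals of Ccl2 were those of saline replicates 2 and 3 of 6 weeks. The difference at 12 weeks minus that at 6 weeks was -2.68 (SE 0.63, adjusted p = 0.306).

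The other CCR2 ligands, Ccl7 and Ccl12, were above background in no group. Ccr2, the receptor of inflammatory monocytes, overlapped at each time. It had 8.98, 10.41 and 8.13 in cadmium kidneys at 6 weeks, against 7.61, 8.35 and 6.61 in saline kidneys (1.65, SE 0.86, limma adjusted p = 0.553). At 1 day it had 11.97, 9.36 and 7.88 in cadmium kidneys, against 9.78, 7.98 and 9.11 in saline kidneys, and the difference of 0.78 turned to -0.33 without cadmium replicate 1. At 12 weeks it averaged 7.08 ± 0.69 in cadmium kidneys and 7.73 ± 0.59 in saline kidneys (SD, n = 3 each).

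The interferon-induced ligands of CXCR3, which draw activated T cells and natural killer cells, had higher means in cadmium kidneys at 6 and 12 weeks without passing. At 6 weeks Cxcl10 had 9.66, 10.58 and 8.70 in cadmium kidneys, against 7.08, 7.33 and 6.92 in saline kidneys. The groups were apart by 2.54 (SE 0.52, 95% interval 1.42 to 3.66, limma adjusted p = 0.12). Cxcl9 had 8.32, 10.88 and 6.35 in cadmium kidneys, against 5.05, 5.05 and 4.98 in saline kidneys, apart by 3.49 (SE 1.02, adjusted p = 0.31), with a wide spread in the cadmium group only. Cxcl11 had 7.45, 8.46 and 6.36 in cadmium kidneys, against 5.99, 6.61 and 5.90 in saline kidneys, and these overlapped (1.26, SE 0.46, adjusted p = 0.406). Cadmium replicate 2 was the highest of the 3 and replicate 3 the lowest for each of these genes. Without replicate 3 the Cxcl10 difference was 3.01 and passed (adjusted p = 0.0485); without replicate 2 it was 2.07 (adjusted p = 0.398).

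At 12 weeks the order of the groups was the same and the differences smaller. Cxcl10 had 8.22, 9.16 and 8.02 in cadmium kidneys, against 8.03, 6.93 and 6.53 in saline kidneys (1.30, SE 0.52, limma adjusted p = 0.456). Cxcl9 had 6.24, 7.65 and 7.30 in cadmium kidneys, against 5.75, 5.00 and 4.73 in saline kidneys, apart by 1.90 (SE 1.02, adjusted p = 0.613). Cxcl11 averaged 6.87 ± 0.55 in cadmium kidneys and 6.28 ± 0.45 in saline kidneys (SD, n = 3 each). At 1 day all 3 overlapped, with Cxcl9 at 10.00, 6.50 and 6.31 in cadmium kidneys, against 8.23, 6.28 and 6.94 in saline kidneys. Their receptor Cxcr3 overlapped at each time, and at 6 weeks had 5.00, 6.01 and 4.92 in cadmium kidneys, against 4.82, 4.96 and 4.84 in saline kidneys.

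The windows of the CXCR3 ligands are shown together because the genes lie side by side on the plus strand of chromosome 14 and had higher means in cadmium kidneys at the same times. They are Cxcl11 at chr14:15973478-15973727, Cxcl10 at chr14:15988816-15989065 and Cxcl9 at chr14:16006916-16007165 (RefSeq, GRCr8). Capitals mark the ISRE core of Cxcl10 at bases -243 to -234, its kappaB matches at -187 to -178 and at -128 to -118, where matches on both strands overlap, and the kappaB match of Cxcl11 at -74 to -65. Cxcl9 held neither motif in this window.

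Cxcl11: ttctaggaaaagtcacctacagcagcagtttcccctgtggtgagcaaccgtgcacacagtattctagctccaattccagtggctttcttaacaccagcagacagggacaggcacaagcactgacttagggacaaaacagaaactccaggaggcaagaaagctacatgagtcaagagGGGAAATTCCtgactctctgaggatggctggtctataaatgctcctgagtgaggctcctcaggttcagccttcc
Cxcl10: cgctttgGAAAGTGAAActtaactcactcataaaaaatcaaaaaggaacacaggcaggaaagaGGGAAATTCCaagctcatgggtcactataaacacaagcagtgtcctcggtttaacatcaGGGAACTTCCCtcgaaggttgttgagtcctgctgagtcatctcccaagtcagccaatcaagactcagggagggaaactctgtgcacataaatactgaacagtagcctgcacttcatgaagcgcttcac
Cxcl9: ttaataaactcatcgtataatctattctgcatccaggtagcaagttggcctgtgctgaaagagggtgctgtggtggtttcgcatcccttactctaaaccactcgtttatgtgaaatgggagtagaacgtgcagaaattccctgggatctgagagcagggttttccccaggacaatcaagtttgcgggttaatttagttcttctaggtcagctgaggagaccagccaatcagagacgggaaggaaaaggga

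The ligands with a membrane-bound or stromal source were far above background in every array. Cx3cl1 (fractalkine), tethered on endothelium and tubule cells, had 12.84, 13.14 and 13.62 in cadmium kidneys at 6 weeks, against 12.38, 12.47 and 12.16 in saline kidneys (0.86, SE 0.42, limma adjusted p = 0.518). At 12 weeks it had 11.50, 12.35 and 12.02 in cadmium kidneys, against 13.14, 12.84 and 13.44 in saline kidneys (-1.18, SE 0.42, adjusted p = 0.386). The groups were apart at both times, higher with cadmium at 6 weeks and lower at 12 weeks, and the difference between these differences was -2.05 (SE 0.59, unadjusted p = 0.00354, adjusted p = 0.373). At 1 day they overlapped, at 13.16 ± 0.82 in cadmium kidneys and 13.20 ± 0.85 in saline kidneys (SD, n = 3 each).

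Cx3cr1, the fractalkine receptor of resident macrophages and patrolling monocytes, had 8.17, 7.91 and 8.39 in cadmium kidneys at 6 weeks, against 7.48, 7.36 and 7.07 in saline kidneys. The groups were apart (0.86, SE 0.42, limma adjusted p = 0.525). At 12 weeks they overlapped, at 7.17 ± 0.35 in cadmium kidneys and 7.62 ± 0.35 in saline kidneys (SD, n = 3 each).

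Cxcl16, the membrane-bound ligand of Cxcr6, had 9.30, 10.34 and 9.37 in cadmium kidneys at 12 weeks, against 10.05, 11.12 and 10.74 in saline kidneys (-0.96, SE 0.42, limma adjusted p = 0.517). The groups overlapped there and at the other times. Cxcr6, a receptor of tissue T cells, lay near background and had 5.32, 4.87 and 4.15 in cadmium kidneys at 1 day, against 4.49, 4.03 and 3.80 in saline kidneys (0.67, SE 0.36, adjusted p = 1.00; 0.40 without cadmium replicate 1). Cxcl12, the stromal ligand that holds progenitor cells and lymphocytes through Cxcr4, differed by -0.16 at 1 day, 0.14 at 6 weeks and 0.05 at 12 weeks (SE 0.38 each), with overlap at each time. The 95% interval at 6 weeks ran from -0.66 to 0.95.

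The signals of its receptors were low for Cxcr4 and well above background for Ackr3. Cxcr4 had 4.65, 4.02 and 4.36 in cadmium kidneys at 6 weeks, against 3.71, 4.16 and 3.65 in saline kidneys, which were all at background. The cadmium mean lay 0.12 above the background level. The groups overlapped, with cadmium replicate 2 also at background, and the difference did not pass (limma adjusted p = 0.485). Ackr3, the scavenger of Cxcl12 and Cxcl11, had 7.16, 6.99 and 7.08 in cadmium kidneys at 6 weeks, against 7.66, 7.35 and 7.49 in saline kidneys (-0.42, SE 0.26, adjusted p = 0.622). The groups were apart on the lower side and overlapped at 1 day and 12 weeks.

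**Figure D3:**
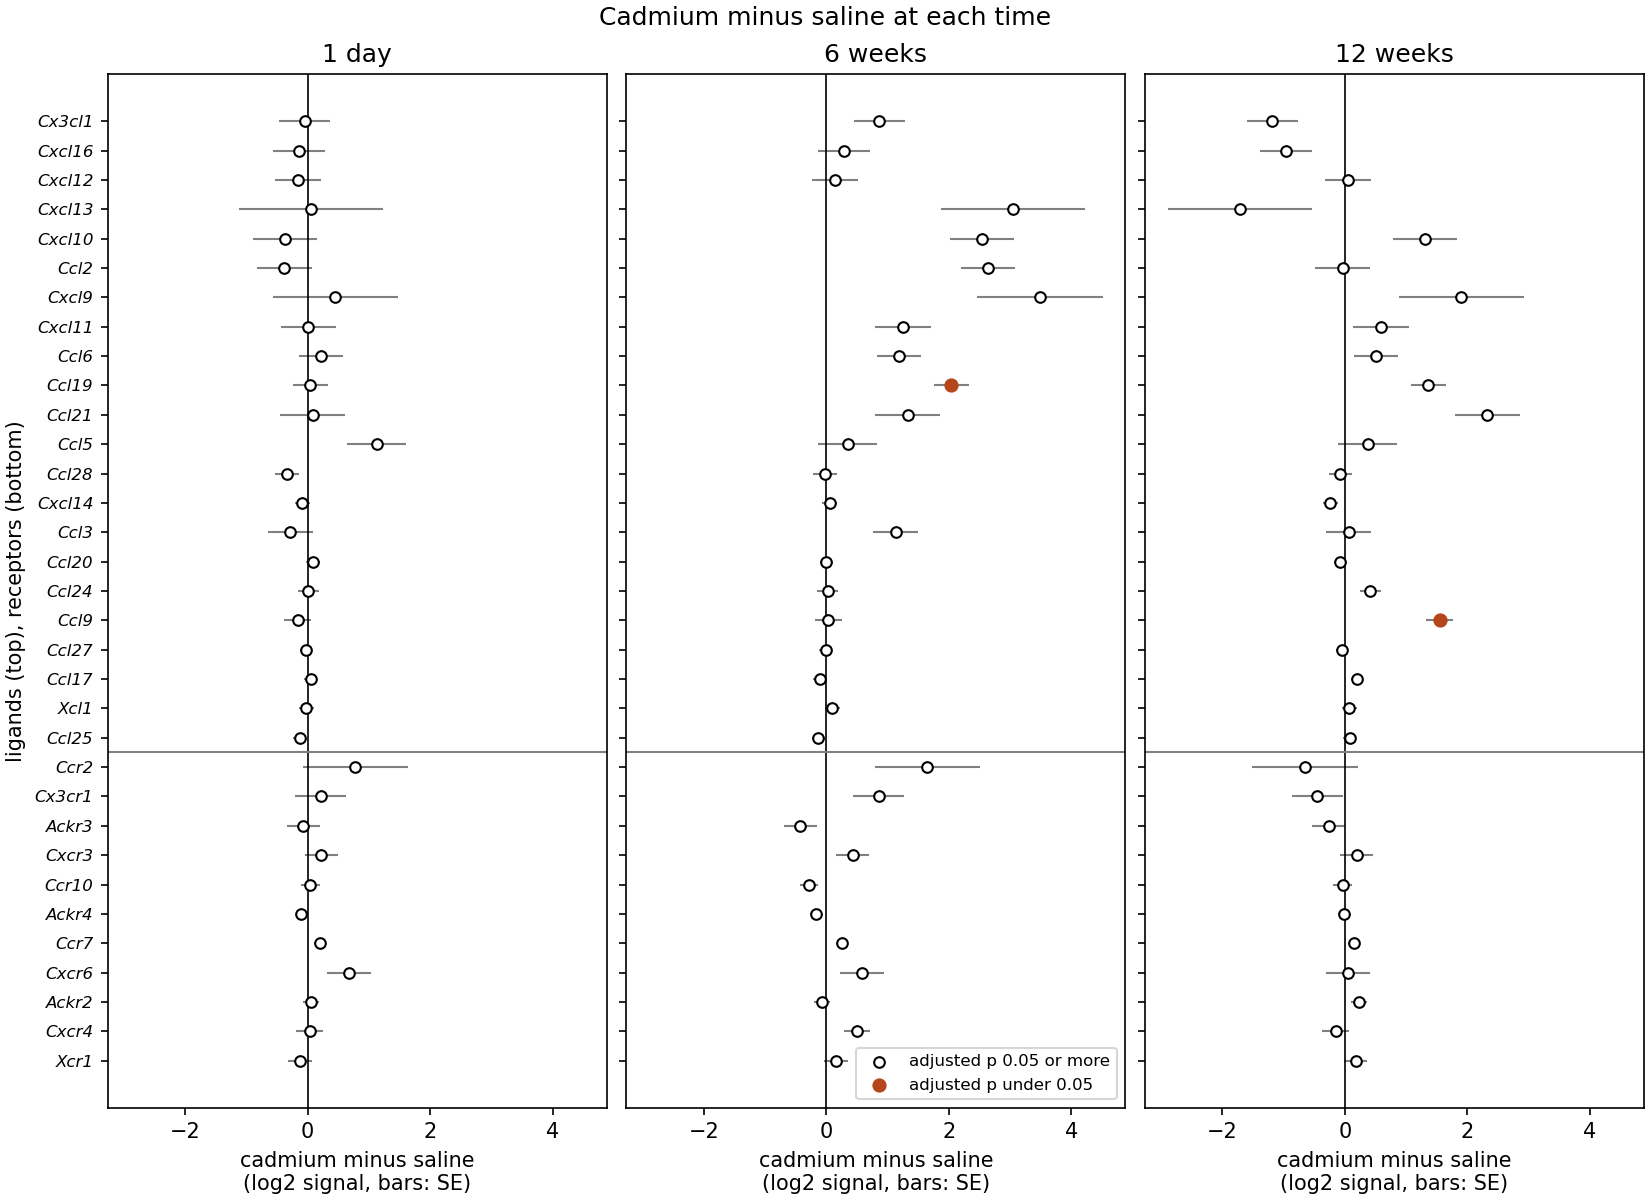
Difference, cadmium minus saline in log2 signal (horizontal axis), of each of the 33 chemokine genes above background in at least 1 group at 1 day, 6 weeks and 12 weeks (panels); points give the difference, bars its SE, and filled points an adjusted p under 0.05. Ccl19 at 6 weeks and Ccl9 at 12 weeks are the filled points, and wide bars mark Cxcl13, Cxcl9 and Ccr2.

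The epithelial ligands and their receptors gave small differences. Ccl28, a mucosal ligand of Ccr10, had 4.91, 4.84 and 4.96 in cadmium kidneys at 1 day, against 5.08, 5.64 and 5.02 in saline kidneys, apart on the lower side (-0.34, SE 0.19, limma adjusted p = 1.00). Without saline replicate 2, the highest array, the difference was -0.15. Ccr10 had 4.70, 4.86 and 4.91 in cadmium kidneys at 6 weeks, against 4.96, 5.18 and 5.17 in saline kidneys (-0.28, SE 0.15, adjusted p = 0.568), again apart on the lower side. Cxcl14, an epithelial chemokine, had 5.26, 5.10 and 5.01 in cadmium kidneys at 12 weeks, against 5.62, 5.40 and 5.06 in saline kidneys. The groups overlapped (-0.24, adjusted p = 0.603), and the difference ran from -0.39 without saline replicate 3 to -0.11 without saline replicate 1. Ccl25, the thymic and gut ligand of Ccr9, had 4.11, 3.96 and 4.24 in cadmium kidneys at 6 weeks, against 4.10, 4.19 and 4.40 in saline kidneys. These overlapped around the background level (adjusted p = 0.70). Ccl20 and Ccl27 ran from 4.76 to 5.18 and from 4.35 to 4.78 over all arrays, and Cxcl17 was above background in no group.

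Among the ligands of CCR3 and CCR4, which draw eosinophils and type 2 T cells, Ccl24 was apart at 12 weeks. It had 4.95, 5.42 and 5.03 in cadmium kidneys, against 4.71, 4.56 and 4.88 in saline kidneys, apart by 0.42 (SE 0.17, limma adjusted p = 0.456), or by 0.27 without cadmium replicate 2. Ccl17 ran from 4.30 to 4.89 over all arrays with overlap at each time, and Ccl11 and Ccl22 stayed at background. The neutrophil attractants of CXCR2 (Cxcl1, Cxcl2, Cxcl3 and Cxcl6) were above background in no group, as were Cxcr1 and Cxcr2. Ccr3, Ccr4, Ccr6, Ccr8, Ccr9, Ccr1l1, Ccl1, Ccl26 and Ackr1 were also above background in no group. Xcl1 ran from 4.0 to 4.54, Xcr1 from 3.56 to 4.50 and Ackr2 from 4.11 to 4.64.

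Chemokine levels in saline kidneys were compared between harvests, and the shares that differed were near or below those of all genes. From 1 day to 6 weeks 0 of 56 passed, against 0.503% of all genes, and 5 had an unadjusted p under 0.05, against 11.8%. Ccl2 differed by -1.81 at 6 weeks from its level at 1 day (SE 0.45, limma adjusted p = 0.111), and without saline replicate 2 of 1 day it passed. Cxcl10 differed by -1.69 (SE 0.52, adjusted p = 0.219) and Ccl6 by -0.81 (SE 0.36, adjusted p = 0.401). From 1 day to 12 weeks 0 of 56 passed, against 0.29%, and 5 had an unadjusted p under 0.05, against 8.6%, with Cxcl10 at -1.64 (SE 0.52, adjusted p = 0.311). Over the 9 saline arrays Ccl2 ran from 5.29 to 8.60, Cxcl10 from 6.53 to 9.37 and Cxcl9 from 4.73 to 8.23, so cadmium arrays of 6 weeks overlapped with saline arrays of other times for each of these. What else differed between the harvests is not given and cannot be told apart from time.

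The change of the cadmium difference from 6 to 12 weeks was tested directly. None of the 56 genes passed in limma, against 0.0136% of all genes, and 5 had an unadjusted p under 0.05, against 10.0%. These were Ccl9 at 1.51, Ccl2 at -2.68, Cx3cl1 at -2.05, Cxcl13 at -4.76 and Cx3cr1 at -1.30. Of these 5, Ccl9 alone had the higher cadmium difference at 12 weeks.

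Genes that induce chemokines were followed as a list of 27, of which 26 were measured. At 6 weeks 1 rose, against 0.0408% of all genes called, 0 fell and 12 were apart on the higher side, against 10.5% of all genes. Irf7, the master factor of the interferon response, stood at 10.13 ± 0.44 in cadmium kidneys and 7.12 ± 0.50 in saline kidneys (SD, n = 3 each), a rise of 3.01 (SE 0.41, limma adjusted p = 0.0201). Stat2, which carries the interferon signal, was 0.94 higher (SE 0.20, adjusted p = 0.146) and Il1b, the cytokine interleukin 1 beta, 0.92 higher (SE 0.22, adjusted p = 0.207). At 12 weeks 1 of the 26 rose, against 0.326% of all genes called, and 0 fell. Irf7 again stood apart, at 9.68 ± 0.51 in cadmium kidneys and 6.77 ± 0.71 in saline kidneys (SD, n = 3 each), a rise of 2.91 (SE 0.41, adjusted p = 0.00435). Nfkb2, the precursor of the noncanonical NF-kappaB pathway, was 0.35 higher (SE 0.08, adjusted p = 0.0847). At 1 day 0 of 26 passed, and Ifng, Ifnb1, Il6 and Il1a were at background in every group.

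Signalling genes behind the receptors gave no call. Of 27 measured, 0 passed at any time, and 12 were apart on the higher side at 6 weeks, against 10.5% of all genes, with a median difference of 0.35, against 0.00 over all genes. Coro1a, an actin regulator of leukocytes, averaged 6.47 ± 0.33 in cadmium kidneys and 5.64 ± 0.07 in saline kidneys (SD, n = 3 each), a difference of 0.82 (SE 0.20, limma adjusted p = 0.207). Rac2, the Rac of blood cells, was 1.64 higher (SE 0.46, adjusted p = 0.30). Among 13 partners outside the rule 0 passed at any time, and Pf4, the platelet chemokine Cxcl4, differed by 0.47 at 6 weeks and 0.52 at 12 weeks.

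Macrophage and T cell markers were higher on average in cadmium kidneys at 6 weeks, with no gene of either list past the test. Macrophage markers, 13 measured and 12 above background in at least 1 group, had a mean level of 6.57 to 7.27 in cadmium kidneys and 5.96 to 6.27 in saline kidneys at 6 weeks. Of the 13, 9 were apart on the higher side, against 10.5% of all genes, and 0 passed, with Fcer1g, a signalling chain of Fc receptors, at 1.48 (SE 0.31, limma adjusted p = 0.137) and Cd68, a lysosomal marker, at 1.75 (SE 0.41, adjusted p = 0.175). Cd163 was at background in every group. At 12 weeks the macrophage level was 6.22 to 6.69 in cadmium kidneys and 6.15 to 6.34 in saline kidneys, and at 1 day 6.29 to 7.24 in cadmium kidneys and 6.19 to 6.99 in saline kidneys. These ranges of the mean overlapped. Single macrophage markers were apart at 12 weeks in both directions: Cd68 was 0.83 higher (SE 0.41, adjusted p = 0.569), Adgre1, a surface receptor of macrophages, differed by -0.58 (SE 0.32, adjusted p = 0.615), and Cd163 was apart on the higher side at background. The part of the macrophage markers in the Ccl9 rise was not tested.

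T cell markers were 9 measured and 8 above background in at least 1 group. Their mean level was 5.11 to 5.40 in cadmium kidneys and 4.73 to 4.91 in saline kidneys at 6 weeks, with overlapping ranges at the other times. Cd4 gave the largest difference at 6 weeks, 1.87 (SE 0.69, limma adjusted p = 0.411), with means of 10.04 in cadmium kidneys and 8.18 in saline kidneys. The Cd3 genes lay much closer to background, with Cd3e at 4.69 in cadmium kidneys and 4.37 in saline kidneys. The mean of the markers differed by 0.46 and their median by 0.18. Of the 9 markers 8 were higher and 5 apart on the higher side, against 10.5% of all genes. Cd3e differed by 0.33 (SE 0.23), Cd3g by 0.31 (SE 0.26) and Cd3d by -0.12. Cd8a was at background throughout. Among 7 dendritic cell markers Itgax alone passed at 6 weeks, against 0.0408% of all genes. It stood at 6.45 ± 0.43 in cadmium kidneys and 5.39 ± 0.11 in saline kidneys (SD, n = 3 each). This was a rise of 1.06 (SE 0.17, limma adjusted p = 0.0485). Of the 7 markers 4 were higher on average, while Zbtb46, Clec9a and Ly75 differed by -0.14, -0.14 and -0.03. At 12 weeks Itgax was apart again, at 0.60 (SE 0.17, adjusted p = 0.235), and Zbtb46 was apart on the lower side, at -0.18. Neutrophil markers lay between 3.72 and 4.24 on average in all arrays, with 6 of 8 at background in every group. B cell markers lay between 3.99 and 4.03 on average in cadmium kidneys and between 4.06 and 4.18 in saline kidneys at 6 weeks.

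The levels of resident cell and blood markers differed between the groups for some lists. Endothelial markers, 6 measured and all above background, had a mean level of 10.37 to 10.70 in cadmium kidneys and 10.77 to 10.92 in saline kidneys at 6 weeks, which did not overlap. At 12 weeks the cadmium level differed by -0.64 on average with overlap. At 6 and at 12 weeks 2 of 6 were apart on the lower side, against 8.04% and 7.07% of all genes, and 0 passed. Podocyte markers had a mean level of 8.27 to 8.84 in cadmium kidneys and 9.20 to 9.94 in saline kidneys at 6 weeks. Of these, 3 of 3 were apart on the lower side, against 8.04% of all genes, and their levels overlapped at 12 weeks. Red blood cell markers had a mean level of 11.86 to 12.11 in cadmium kidneys and 10.82 to 12.00 in saline kidneys at 6 weeks. Of these, 4 of 6 were apart on the higher side, against 10.5% of all genes. The proximal tubule level was 14.42 to 16.85 in cadmium kidneys and 15.33 to 17.36 in saline kidneys at 12 weeks, when Cx3cl1 was apart on the lower side. The part of these lists and of the leukocyte markers in the chemokine differences was not tested.

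Some 6-week values were highest in the same array. Cadmium replicate 2 of 6 weeks held the highest signal of all 18 arrays for 8 of the 33 genes above background in at least 1 group. These were Ccl19, Ccl3, Cxcl10, Cxcl11, Cxcl9, Cxcr3, Cxcr6 and Xcr1. Cadmium replicate 1 of 6 weeks held it for 3, namely Cxcl13, Ccl2 and Ccr7. The same count over all genes was not made, so these counts have no share to stand beside. The macrophage level was 7.27 in cadmium replicate 2 of 6 weeks and 7.22 in cadmium replicate 1. Without replicate 2 the difference at 6 weeks was 1.89 in place of 2.04 for Ccl19. It was 2.07 in place of 2.54 for Cxcl10 and 2.30 in place of 3.49 for Cxcl9.

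**Figure D4:**
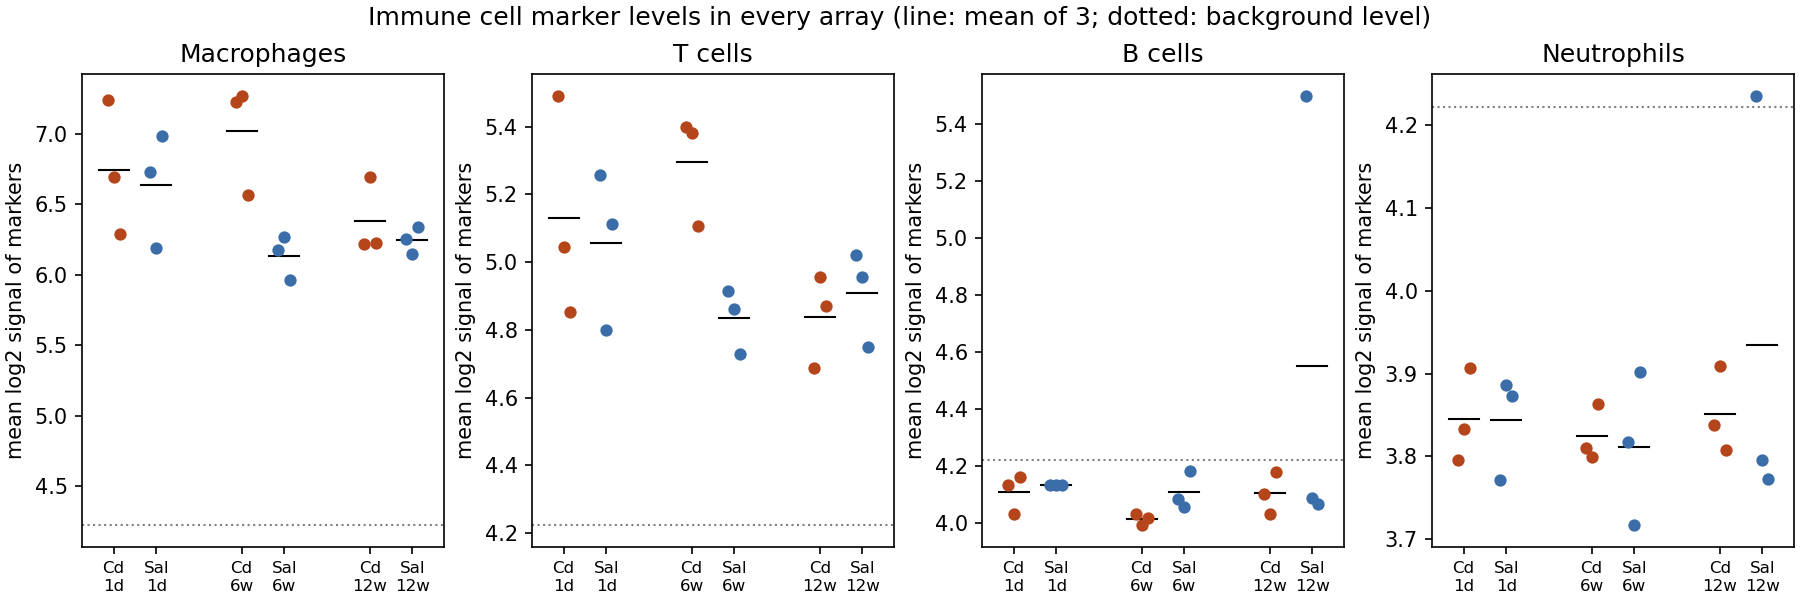
Mean log2 signal of the macrophage, T cell, B cell and neutrophil marker lists (panels, vertical axis) in each array at 1 day, 6 weeks and 12 weeks; cadmium (Cd, orange) stands left of saline (Sal, blue), lines give the mean of 3 arrays and the dotted line the background level of 4.22. Macrophage and T cell levels separate the groups at 6 weeks only, B cell markers are high in 1 saline array of 12 weeks (5.50), and neutrophil markers stay near or below background.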

How the data were processed

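The deposited values were log2 signals per transcript cluster of 18 Affymetrix arrays, made by the authors; the summarisation, background correction and normalisation are not given in the sources used here, so no fold change was calibrated; the highest value was shared by 9 arrays and the array medians were nearly equal. Per the labels, total RNA was extracted with Trizol and biotinylated cRNA hybridised. Of 70570 probe sets, 23437 named 1 gene in the platform annotation and 505 named several; a gene was its cluster of highest mean, which gave 22084 genes. All 56 chemokine genes matched a RefSeq symbol through their Entrez ID.

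Differences were fitted on all 18 arrays and all 22084 genes with limma 3.58.1 in R 4.3.3 (group means, lmFit, contrasts.fit, eBayes; 12 residual and 2.45 prior degrees of freedom), and p-values were adjusted by Benjamini-Hochberg over all genes within each comparison at a threshold of 0.05. The fit was tested on simulated data. Figures were drawn in matplotlib 3.10.9. Members, roles, marker lists and tests were chosen with earlier results of these data known. Genes given by array were those that passed in any cadmium comparison and the 4 of smallest p in each direction at each time among those above background, with levels of up to 3 genes per role and up to 4 genes per list. Alternatives were other normalisations, weights, variance models, filters, a replicate block and leaving out each array. A batch could not be tested, since the labels give none.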

Additional observations from a re-analysis of the deposited data

Results flagged for a closer look

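Cx3cl1 and Cxcl13 drew attention because every cadmium array lay above every saline array at 6 weeks and below every saline array at 12 weeks. The cadmium difference of Cxcl13 at 12 weeks minus that at 6 weeks was -4.76 (SE 1.66, limma unadjusted p = 0.0123, adjusted p = 0.423). That of Cx3cl1 was -2.05 (SE 0.59, unadjusted p = 0.00354, adjusted p = 0.373). Neither passed the threshold after adjustment over all genes. The saline means differed too between these harvests, with Cxcl13 at 9.38 ± 0.30 at 12 weeks and 7.12 ± 1.02 at 6 weeks, and Cx3cl1 at 13.14 ± 0.30 at 12 weeks and 12.34 ± 0.16 at 6 weeks (SD, n = 3 each).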

How the results depend on the processing

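The 3 arrays in a group and the signals close to background limit what these comparisons can show. The count of chemokine genes past the threshold at 6 weeks, 1 of 56, was 3 with only the arrays of the comparison (Ccl19, Ccl2 and Ccl21), 5 with array weights (Ccl19, Ccl2, Ccl6, Ccl7 and Cxcl10), and 2 both with an intensity trend and with a filter on dim genes (Ccl19 and Ccl2). It ran from 0 to 2 when each array was left out. At 12 weeks the count of 1 was 0 with only the arrays of the comparison, 2 with array weights (Ccl19 and Ccl9), and stayed at 1 without each array. From 1 day to 6 weeks in saline the count of 0 ran from 0 to 1 when each array was left out, the 1 being Ccl2. At 1 day, for the change from 6 to 12 weeks and for saline from 1 day to 12 weeks, the count was 0 in each alternative. Ccl19 at 6 weeks passed in 10 of 15 alternatives (adjusted p 0.00122 to 0.148), Ccl9 at 12 weeks in 14 of 15 (0.00187 to 0.461), Ccl2 at 6 weeks in 4, Cxcl10 at 6 weeks in 2, and Ccl19 at 12 weeks in 1. Over all genes the count at 6 weeks was 9 and ran from 2 to 500, at 12 weeks 72 and from 0 to 127, for the change between them 3 and from 0 to 17, for saline from 1 day to 6 weeks 111 and from 8 to 341, and for saline from 1 day to 12 weeks 64 and from 2 to 131. With the replicate block the chemokine count was 1 at 6 weeks (Ccl19, adjusted p = 0.0487) and 1 at 12 weeks (Ccl9, adjusted p = 0.0169), and over all genes it was 3 and 52; the block changed no chemokine call. The correlations of the deviations of same-numbered samples ran from -0.50 to 0.48, with 2 of 9 over 0.1. Between other numbers they ran from -0.59 to 0.55, with 6 of 18 over 0.1. Deviations from a mean of 3 arrays are tied to each other, so these values cannot tell whether the numbers mark pairs.

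Signs turned for differences that had not passed. The Ccl9 difference at 6 weeks was -0.0179 with median centring, -0.0187 with array weights and -0.0015 to 0.0885 when each array was left out. At 1 day, leaving out each array gave -0.13 to 0.25 for Ccl19, -0.33 to 1.71 for Ccr2 and -0.80 to 0.22 for Ccl2. With the median in place of the mean of the markers, the macrophage difference was 1.43 in place of 0.89 at 6 weeks and -0.20 in place of 0.13 at 12 weeks, and that of T cells 0.18 in place of 0.46 at 6 weeks. The causes were not tested.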
